A study of Mus musculus with 6 samples.

Results

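Intermediate-density CpG clusters are stretches in which CpGs are more frequent than in bulk mouse DNA but too sparse for a CpG island. Here they were built from autosomal CpG sites with 20 to 59 CpGs within 500 bp on each side, the site itself included, that lay more than 5000 bp from any site with 60 or more. Of 20782144 CpG sites in the series, 3142841 autosomal sites had such a density and 2508450 of these lay away from dense DNA. Sites were kept where all 3 lines had at least 5 reads and none exceeded 80 reads in the SETD2 knockout, 40 in the DNMT3B1 line and 45 in the DNMT3A2 line, which left 986820 sites (39.3%). Most of the loss, 1326524 sites, was of sites not listed for the SETD2 knockout, for which values were given only at 10 reads or more. Sites within 500 bp of each other were joined, which gave 94073 clusters, 14836 of them with 1 site. The 36057 clusters (38.3%) with at least 5 sites and 100 reads in every line were described singly, and they held 77.7% of the kept sites.

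The data are whole-genome bisulfite sequencing of mouse embryonic stem cells in which Dnmt1, Dnmt3a and Dnmt3b are all deleted, a genotype shared by every line here. One line carried DNMT3B1 and also lacked SETD2, one carried DNMT3B1 with SETD2 intact, and one carried DNMT3A2. Each line had 2 sequencing runs but a single set of deposited counts, and no separate cultures were named, so every line counted as 1 library and no difference between lines could be tested. The cells had been grown on feeder cells or on gelatine, and DNA from feeder cells, which carries methylation of its own, cannot be told apart in these reads. Intervals below are exact (Clopper-Pearson) 95% binomial intervals and concern counting error only. Reads were summed over CpGs, so a read that spans several CpGs counts at each of them. The intervals take these counts as independent and can be too narrow, which also bears on calls and overlaps read from them. The range over the 19 autosomes is given as a second measure of spread.

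DNMT3A and DNMT3B add methyl groups to unmethylated CpGs, whereas DNMT1 copies methylation onto the new strand after replication. In cells without DNMT1 that copy is missing, so the level at a site reflects what the reintroduced enzyme puts on and what replication and demethylation take off. Short DNMT3A2 and catalytically active DNMT3B1 are the main forms in embryonic stem cells. SETD2 trimethylates a lysine of histone H3 across transcribed gene bodies, and the PWWP domain of DNMT3B binds that mark. CpG-dense promoters usually stay free of methylation in such cells, in part because CXXC-domain proteins bind unmethylated CpGs there, while promoters of intermediate density include many germline genes that are methylated during early development. The study asked where in the genome each enzyme acts and whether DNMT3B depends on SETD2.

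Promoter sequences show what such a cluster looks like at the level of bases. The windows run from 250 bases before to 50 after a gene start, come from RefSeq (build GRCm38.p6), and were placed on the mm9 positions of the files only where the spacing of their CpGs matched at a single place. CpGs are in capitals. The first 3 windows lie in clusters that were methylated in the DNMT3A2 line and belong to Tuba3a and Tuba3b, testis-expressed alpha-tubulins, and Dpep3, a testis membrane dipeptidase. The last pair lies in unmethylated clusters and belongs to Hormad2, which marks unsynapsed meiotic chromosome axes, and Prdm9, the histone methyltransferase that places meiotic recombination hotspots.
Tuba3a (chr6:125236050-125236349, minus strand): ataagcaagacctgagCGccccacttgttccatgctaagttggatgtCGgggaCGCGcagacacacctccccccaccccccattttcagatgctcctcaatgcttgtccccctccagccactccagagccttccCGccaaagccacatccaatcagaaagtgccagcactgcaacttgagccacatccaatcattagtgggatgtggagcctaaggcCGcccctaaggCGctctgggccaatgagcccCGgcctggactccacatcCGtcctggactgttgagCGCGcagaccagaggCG
Tuba3b (chr6:145564233-145564532, plus strand): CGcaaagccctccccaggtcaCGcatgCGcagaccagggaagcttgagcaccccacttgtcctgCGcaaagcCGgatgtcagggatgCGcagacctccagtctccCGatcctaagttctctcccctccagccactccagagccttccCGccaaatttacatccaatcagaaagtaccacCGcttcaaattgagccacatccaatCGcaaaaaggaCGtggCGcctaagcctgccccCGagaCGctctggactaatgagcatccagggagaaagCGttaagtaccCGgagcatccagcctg
Dpep3 (chr8:108503270-108503569, minus strand): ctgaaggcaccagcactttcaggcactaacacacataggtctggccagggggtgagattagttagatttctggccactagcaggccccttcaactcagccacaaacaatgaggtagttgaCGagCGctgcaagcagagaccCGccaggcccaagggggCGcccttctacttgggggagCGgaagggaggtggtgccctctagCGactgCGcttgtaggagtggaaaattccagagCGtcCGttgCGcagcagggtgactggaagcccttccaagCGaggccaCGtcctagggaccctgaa
Hormad2 (chr11:4341036-4341335, minus strand): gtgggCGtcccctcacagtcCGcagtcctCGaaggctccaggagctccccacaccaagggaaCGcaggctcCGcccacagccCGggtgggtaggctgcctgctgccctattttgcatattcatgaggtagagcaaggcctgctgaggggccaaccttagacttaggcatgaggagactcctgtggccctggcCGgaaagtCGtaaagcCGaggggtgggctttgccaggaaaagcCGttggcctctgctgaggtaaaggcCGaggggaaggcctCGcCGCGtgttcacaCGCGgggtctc
Prdm9 (chr17:15701269-15701568, minus strand): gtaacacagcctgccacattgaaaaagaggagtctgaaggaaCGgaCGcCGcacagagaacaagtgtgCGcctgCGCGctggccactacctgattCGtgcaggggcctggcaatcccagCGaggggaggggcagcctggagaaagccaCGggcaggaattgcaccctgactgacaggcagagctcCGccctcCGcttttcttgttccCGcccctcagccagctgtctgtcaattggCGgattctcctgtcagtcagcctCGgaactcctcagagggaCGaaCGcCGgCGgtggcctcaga
The windows hold 12 CpGs for Tuba3a, 16 for Tuba3b, 12 for Dpep3, 16 for Hormad2 and 18 for Prdm9. The class is that of the whole cluster, and a window can lie below it. In the Tuba3a window, 14 of 225 reads were methylated in the SETD2 knockout, 3 of 113 in the DNMT3B1 line and 7 of 149 in the DNMT3A2 line. In the Tuba3b window the counts were 5 of 242, 0 of 151 and 4 of 124, so in the DNMT3A2 line both windows were under the 10% that their clusters passed. In the Dpep3 window, 11 of 288 reads were methylated in the SETD2 knockout, 2 of 150 in the DNMT3B1 line and 21 of 191 in the DNMT3A2 line. In the Hormad2 window, 2 of 365 reads were methylated in the SETD2 knockout, 0 of 180 in the DNMT3B1 line and 0 of 242 in the DNMT3A2 line. The Prdm9 window had no methylated read among 264, 321 and 214 reads in the SETD2 knockout, the DNMT3B1 line and the DNMT3A2 line. The windows of Tuba3a and Tuba3b are paralogous, with a longest shared stretch of 33 bases. Whether any reads of the pair were mapped to the wrong gene was not tested.

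Over all kept sites of the clusters, 5.02% of reads were methylated in the SETD2 knockout, 2.42% in the DNMT3B1 line and 6.71% in the DNMT3A2 line. The range over autosomes was 4.13% to 5.58%, 2.07% to 2.78% and 5.15% to 7.55% in the same order of lines, so the DNMT3B1 range did not meet the others, while those of the SETD2 knockout and the DNMT3A2 line overlapped. Mean coverage was 19.4 reads per site in the SETD2 knockout, 13.5 in the DNMT3B1 line and 13.8 in the DNMT3A2 line. The clusters stood below the mean of all 7047535 autosomal sites compared, which was 5.87%, 2.75% and 7.28% in these lines. The apparent methylation of sites with 100 or more CpGs around them, taken as the background of each library, was 0.407% in the SETD2 knockout, 0.142% in the DNMT3B1 line and 0.174% in the DNMT3A2 line.

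Within the clusters the level was lower at each step of density and in every line. At 20 to 24 CpGs it was 6.11% in the SETD2 knockout, 2.98% in the DNMT3B1 line and 8.47% in the DNMT3A2 line. At 30 to 39 CpGs it was 3.76%, 1.80% and 4.54%, and at 50 to 59 CpGs it was 0.829%, 0.340% and 0.588%. The order of the SETD2 knockout and the DNMT3A2 line turned over along this scale in levels from which no background was subtracted. The level in the knockout was 0.721 times that of the DNMT3A2 line at 20 to 24 CpGs, 1.08 times at 40 to 49 and 1.41 times at 50 to 59. The library background is also higher in the knockout (0.407%) than in the line with DNMT3A2 (0.174%). These are large beside the levels of 0.829% and 0.588% at 50 to 59 CpGs. The part of background in that turn was not tested.

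**Figure D1:**
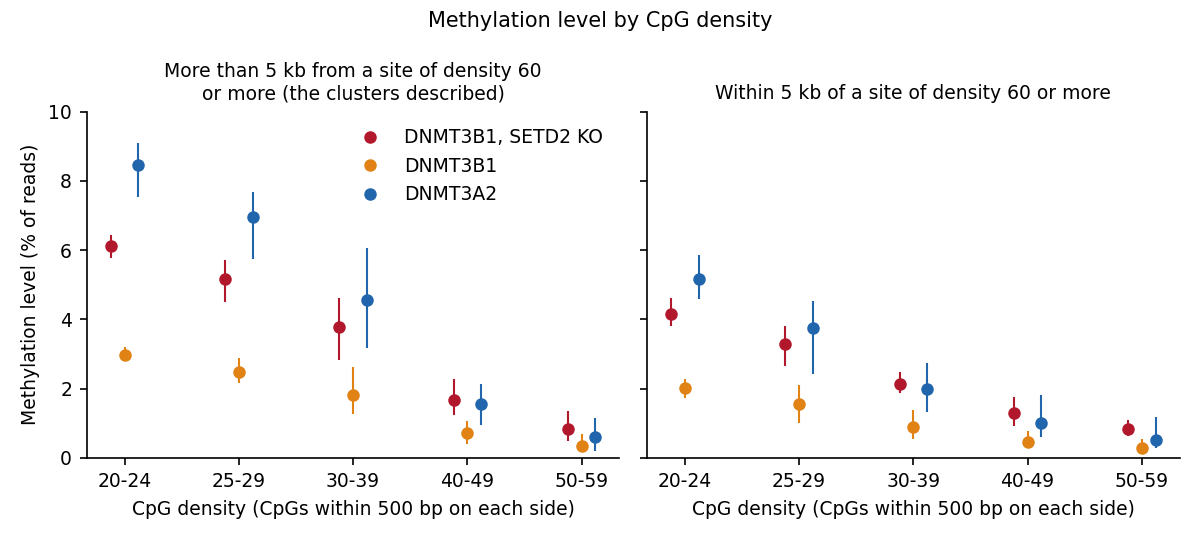
Methylation level (percent of reads) against CpG density for sites of the clusters (left) and for sites of the same density within 5 kb of dense DNA (right); points are pooled levels and lines the range over autosomes. Levels are lower at each step of density in all 3 lines, and at 20 to 24 CpGs the sites away from dense DNA lie higher than those near it.

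Distance from dense DNA went with a higher level at the same density. At 20 to 24 CpGs, sites within 5000 bp of dense DNA had 4.16% methylated reads in the SETD2 knockout, 2.00% in the DNMT3B1 line and 5.16% in the DNMT3A2 line. None of these 3 autosome ranges met the range of the clusters at that density. At 50 to 59 CpGs the difference was gone within the autosome ranges, with near-dense levels of 0.832%, 0.270% and 0.528% in the 3 lines. Sites of density 10 to 19 away from dense DNA lay above the clusters, at 7.08% in the SETD2 knockout, 3.38% in the DNMT3B1 line and 9.39% in the DNMT3A2 line.

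The limits that define the clusters cut through gradual change. Sites just inside the lower limit, with 20 CpGs, had 6.37%, 3.11% and 8.84% in the SETD2 knockout, the DNMT3B1 line and the DNMT3A2 line, against 6.53%, 3.16% and 9.05% for sites with 19. The 489 kept sites with 59 CpGs had 0.814%, 0.291% and 0.471%, against 0.666%, 0.183% and 0.362% for sites with 60. Sites 5 to 6 kb from dense DNA had 4.24%, 2.28% and 5.20%, against 4.003%, 2.09% and 4.91% for sites 4 to 5 kb away.

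Single clusters spread widely around these means. The median cluster had 4.61% methylated reads in the SETD2 knockout, 1.65% in the DNMT3B1 line and 5.90% in the DNMT3A2 line, on medians of 324, 226 and 231 reads per cluster. A level of 10% or more, called methylated here, was reached by 3936 clusters (10.9%) in the SETD2 knockout, 770 (2.14%) in the DNMT3B1 line and 9437 (26.2%) in the DNMT3A2 line. Over the 145946 clusters of all 3 kinds scored (those described here, those near dense DNA and those of low density), the shares were 16.3%, 2.78% and 35.0%. A level of 1% or less, called unmethylated, was found in 4869 clusters (13.5%), 14194 (39.4%) and 5933 (16.5%), where the shares over all kinds were 8.71%, 30.1% and 10.4%. Both classes are counted against a fixed percentage, so the DNMT3B1 line, with the lowest level, has the fewest methylated clusters and the most unmethylated ones.

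Few clusters were methylated in every line and many more were unmethylated in every line. In all 3 lines together 161 clusters were methylated and 2970 unmethylated. The DNMT3B1 line by itself had 770 methylated and 14194 unmethylated clusters, so the fixed percentages favour the second count. Overlaps of classes were not counted over the other kinds of clusters. Of the clusters unmethylated in the DNMT3A2 line, 86.1% had the same class in the DNMT3B1 line, and 53.5% had it in the SETD2 knockout. Of the clusters unmethylated in the DNMT3B1 line, 29.04% were so in the SETD2 knockout and 36.0% in the DNMT3A2 line. Of the clusters methylated in the DNMT3B1 line, 31.9% were also methylated in the knockout and 54.8% in the DNMT3A2 line. Opposite classes were rare where the SETD2 knockout was set against the DNMT3A2 line: 57 clusters were methylated in the knockout and unmethylated in the DNMT3A2 line, and 122 were the other way round. Where the knockout was set against the DNMT3B1 line, 574 clusters were methylated in the knockout and unmethylated in the other line, and 10 were the reverse, on fixed percentages that the DNMT3B1 line reaches less often. With the same limit, 1519 clusters were methylated in the DNMT3A2 line and unmethylated in the DNMT3B1 line, and 5 were the reverse. Across clusters, Spearman's rho was 0.51 between the SETD2 knockout and the DNMT3B1 line, 0.60 between the SETD2 knockout and the DNMT3A2 line and 0.54 between the DNMT3B1 and the DNMT3A2 line (n = 36057 clusters). Clusters share CpG density, which goes with level in every line: among clusters whose highest density was 20 to 24 the same values were 0.35, 0.38 and 0.35 (n = 9887), and at 40 to 59 they were 0.60, 0.71 and 0.63 (n = 4744).

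To set methylated against unmethylated clusters without reusing the values that chose them, clusters were split on the DNMT3A2 line and read in the lines with DNMT3B1. The 9437 clusters methylated by DNMT3A2 had 7.53% methylated reads in the SETD2 knockout, and the 5933 unmethylated ones had 1.23%, a ratio of 6.11. In the DNMT3B1 line the methylated clusters had 3.97% and the unmethylated ones 0.356%, a ratio of 11.2. The autosome ranges of the classes did not meet in either line, at 6.85% to 8.13% against 1.01% to 1.51% in the knockout and 3.64% to 4.28% against 0.277% to 0.425% in the DNMT3B1 line. The 20687 clusters between these classes had 4.81% in the knockout and 2.29% in the DNMT3B1 line. In the DNMT3A2 line, whose values made the split, the levels were 14.2% in methylated, 5.21% in intermediate and 0.301% in unmethylated clusters.

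Density differs between the classes, so the split was also read within bins of the highest density. Density can still differ between the classes within a bin. Among clusters whose highest density was 20 to 24, the methylated ones were 2.86 times as methylated as the unmethylated ones in the SETD2 knockout and 4.27 times in the DNMT3B1 line. At 40 to 59 the ratios were 8.66 and 19.3. The methylated clusters kept nearly the same level at every density, from 7.66% at 20 to 24 to 7.27% at 40 to 59 in the knockout, and from 3.92% to 4.42% in the DNMT3B1 line. The unmethylated clusters were lower at higher density, at 2.68% and 0.839% at the ends of the scale in the knockout and at 0.918% and 0.229% in the DNMT3B1 line. The share of each class also differed with density: 34.4% of clusters were methylated and 7.98% unmethylated at 20 to 24 CpGs, against 4.20% and 55.9% at 40 to 59.

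**Figure D2:**
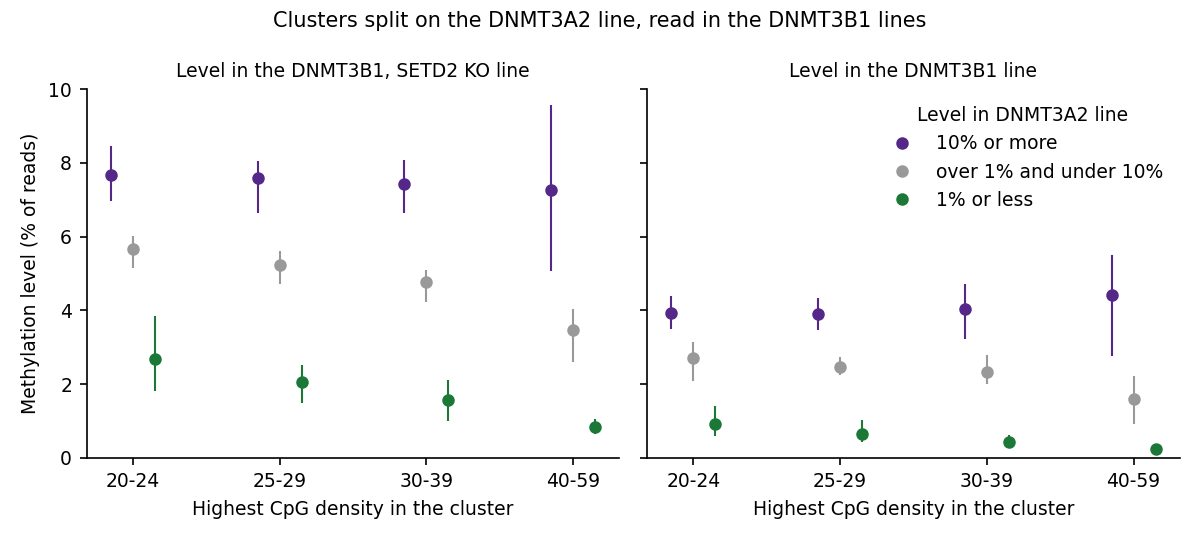
Methylation level in the SETD2 knockout (left) and the DNMT3B1 line (right), in percent of reads, of clusters grouped by their level in the DNMT3A2 line, against the highest CpG density in the cluster; points are pooled levels and lines the range over autosomes. The methylated clusters lie between 7.27% and 7.66% (left) and between 3.91% and 4.42% (right) at every density, while the unmethylated ones are lower at higher density.

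The level of the SETD2 knockout relative to the DNMT3B1 line differed between the classes. The knockout was 1.90 times as methylated as the DNMT3B1 line in the clusters methylated by DNMT3A2 and 3.46 times in the unmethylated ones. After the background of each line was subtracted, the methylated to unmethylated ratio was 8.08 in the knockout and 16.5 in the DNMT3B1 line. That background was gauged only at sites of density 100 or more. In the DNMT3B1 line it was 0.142%, beside 0.356% in the unmethylated clusters, so the ratio there depends strongly on it. The part of background in the contrast between lines was not tested. A split on the DNMT3B1 line gave ratios of 3.20 in the SETD2 knockout and 3.89 in the DNMT3A2 line, and a split on the knockout gave 11.2 in both other lines. Clusters just inside the methylated class (10% to 11% in the DNMT3A2 line) had median levels of 6.65% in the knockout and 3.05% in the DNMT3B1 line, against 6.21% and 2.70% just outside it. Clusters just inside the unmethylated class (0.5% to 1%) had medians of 1.47% and 0.199%, against 1.88% and 0.426% just outside it.

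Methylated and unmethylated clusters also differed in their make-up. The median highest density was 26 CpGs in methylated and 37 in unmethylated clusters, the median spacing of measured CpGs was 27.5 bp and 19 bp, and the median number of measured sites was 15 and 22. Their median length was close, at 763 bp and 881 bp. The median distance to dense DNA was 46.1 kb for methylated and 34.3 kb for unmethylated clusters, with wide quartiles (20.9 to 98.8 kb and 15.6 to 78.0 kb). Reads per site were slightly fewer in unmethylated clusters, with medians of 18.8 and 18.3 in the knockout, 13.4 and 12.8 in the DNMT3B1 line and 13.8 and 13.1 in the DNMT3A2 line for methylated and unmethylated clusters.

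Neighbouring clusters tended to fall into the same class. Where the next cluster lay within 10 kb, it was methylated for 40.4% of methylated clusters, against 28.4% of all clusters, and unmethylated for 26.9% of unmethylated clusters, against 13.2% of all. In the SETD2 knockout 46.2% of the sites in methylated clusters had at least 1 methylated read, against 11.2% in unmethylated clusters, and in the DNMT3B1 line the shares were 23.9% and 2.74%. In methylated clusters with at least 10 methylated reads in a line, the leading site held a median of 27.0% of those reads in the knockout, 30% in the DNMT3B1 line and 22.6% in the DNMT3A2 line. Chromosomes differed in their mix. Chromosome 8 had the highest share of methylated clusters (31.4%) and the lowest of unmethylated ones (11.1%), and chromosome 7 the reverse, with 19.3% and 24.9%.

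The level of unmethylated clusters stepped up at their borders and was higher still further outside. In the SETD2 knockout, the middle part of each cluster (1 of 3 equal parts) had 0.871% methylated reads, the outer parts 1.47%, the first 1 kb outside 4.76% and the stretch from 2 to 5 kb outside 6.28%. The DNMT3B1 line had 0.258%, 0.424%, 1.90% and 2.89% over the same steps. Borders were set by CpG density, which goes with level in every line, and its part in this step was not tested. Methylated clusters had no such step in these lines, with 7.37% in the middle part, 8.06% in the first 1 kb outside and 7.55% at 2 to 5 kb in the knockout, and 3.92%, 4.11% and 3.75% in the DNMT3B1 line. Clusters methylated in the DNMT3A2 line had 14.1% in the middle and 10.4% at 2 to 5 kb in that line, a difference that the split itself can produce.

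**Figure D3:**
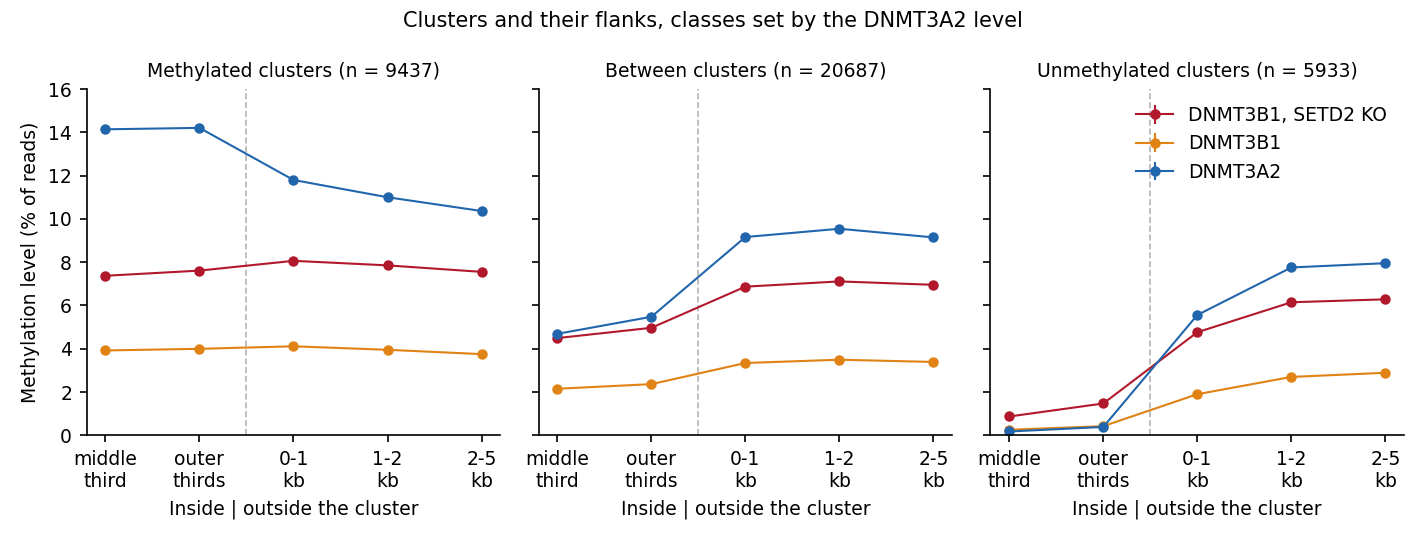
Methylation level (percent of reads) inside clusters and in their flanks, for clusters methylated, between and unmethylated in the DNMT3A2 line; lines join pooled levels in each sequenced line and bars (mostly smaller than the points) are exact 95% intervals. Unmethylated clusters are low inside and reach 6.28% (SETD2 knockout) and 2.89% (DNMT3B1) at 2 to 5 kb, while methylated clusters lie level with their flanks in both DNMT3B1 lines.

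Line against line, the shares of clusters called were close to those over all kinds of clusters and mostly above those of clusters near dense DNA. In absolute terms the SETD2 knockout exceeded the DNMT3B1 line in 81.6% of clusters and the DNMT3A2 line in 39.5%, and the DNMT3B1 line exceeded the DNMT3A2 line in 12.6%. For a comparison of patterns, each level was divided by the autosomal level of its line, and a cluster was called where these relative levels were at least 2-fold apart with exact intervals that did not overlap. Between the SETD2 knockout and the DNMT3B1 line, 1652 clusters (4.58%) were called higher and 2294 (6.36%) lower in the knockout, beside 4.36% and 6.04% of clusters of all kinds. Between the SETD2 knockout and the DNMT3A2 line the calls were 2348 (6.51%) higher and 2956 (8.20%) lower, beside 5.80% and 7.96%. Between the DNMT3B1 and the DNMT3A2 line they were 2091 (5.80%) higher and 2178 (6.04%) lower in the DNMT3B1 line, beside 5.69% and 6.13%. All 6 shares lay near those of all clusters, most of which are of low density and which include the clusters themselves. Near dense DNA the shares called lower were 3.41% for the knockout against DNMT3B1, 2.67% for the knockout against DNMT3A2 and 1.85% for DNMT3B1 against DNMT3A2. The shares called higher there were 2.85%, 7.12% and 4.13% in the same order, and 7.12% lay above the 6.51% of the clusters.

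The called clusters show how far the lines can part at one place. Clusters called higher in the knockout than with DNMT3B1 and intact SETD2 had median levels of 8.86% in the knockout, 0.324% in the DNMT3B1 line and 6.74% in the DNMT3A2 line. Those called lower had medians of 4.02%, 7.49% and 8.04%. In the first group the DNMT3B1 line had the lowest median, as it did among clusters called lower in DNMT3B1 than in DNMT3A2 (5.93%, 0.579% and 14.2%). Both groups were called on a low relative level of the DNMT3B1 line, so its low median follows from the call in each.

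Among the 18296 clusters with at least 10 sites and 200 reads in every line, those with the highest level in each line are named by position, since no gene models of mm9 were used here beyond the placed promoters. The highest level in the SETD2 knockout was at chr7:53387426-53388234, where 71 of 334 reads were methylated, against 11 of 248 in the DNMT3B1 line and 36 of 350 in the DNMT3A2 line. The highest in the DNMT3B1 line was at chr7:36388522-36389962, with 48 of 375 reads methylated in the knockout, 63 of 294 in the DNMT3B1 line and 34 of 279 in the DNMT3A2 line. The highest in the DNMT3A2 line was at chr2:173254113-173254974, with 60 of 462, 29 of 278 and 83 of 238 reads. The leading level in the DNMT3A2 line (34.9%) was higher than in the knockout (21.3%) or the DNMT3B1 line (21.4%), and even there most reads were unmethylated. None of the 15 clusters that led a line held a placed promoter.

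The cluster at chr2:31680038-31681764, with 32 measured sites and a highest density of 29, was nearly free of methylation in the DNMT3B1 line alone. It had 60 methylated of 644 reads in the SETD2 knockout, 1 of 474 in the DNMT3B1 line and 60 of 415 in the DNMT3A2 line. The methylated reads of the knockout lay on 18 sites and those of the DNMT3A2 line on 20, so the difference was not that of a single CpG. The nearest placed promoter, that of Qrfp, which encodes a neuropeptide, lay 13688 bp away. This cluster was among the 5 lowest for DNMT3B1 over DNMT3A2 and among the 5 highest for the SETD2 knockout over DNMT3B1.

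The cluster at the promoter of Bcl6, a transcriptional repressor of the germinal centre, was the lowest for the SETD2 knockout over the DNMT3B1 line. It had 1 methylated of 525 reads in the knockout, 21 of 426 in the DNMT3B1 line and 6 of 323 in the DNMT3A2 line. The 21 reads lay on 8 sites, with 10 of them on 1 site. This cluster lay 5.019 kb from dense DNA, just inside the limit of 5000 bp. The cluster at Dhx30, an RNA helicase, had 1 of 457, 9 of 235 and 0 of 275 reads, with the 9 reads on 1 site. The cluster at Myo1h, an unconventional myosin, lay at the other end, with 55 of 852 reads in the knockout, 1 of 633 in the DNMT3B1 line and 30 of 560 in the DNMT3A2 line. Ranks at these ends favour clusters with 1 methylated read in a line, because a line with none was set to 3 reads for the ratio.

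At the bottom, 185 of the 18296 clusters had no methylated read in any line. The 5 with the most sites held 49 to 56 sites each, and 4 of them held a placed promoter. These were the promoters of C530005A16Rik, of Hilpda, a lipid droplet protein induced by hypoxia, of the divergent pair Cyb561a3 and Tmem138, and of Nmt1, which attaches myristate to proteins. At Nmt1 there were 0 of 1103 reads in the SETD2 knockout, 0 of 1082 in the DNMT3B1 line and 0 of 821 in the DNMT3A2 line. A count of 0 covers the reads of these clusters only and the positions measured.

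Promoters were placed for 13562 autosomal genes, and 3186 of the scored clusters held at least 1 of them. Promoters were rare in methylated clusters (152 of 9437, 1.61%), uncommon in the clusters between (1091, 5.27%) and frequent in unmethylated ones (1943 of 5933, 32.7%). The difference held within bins of density, which do not match density fully. Among clusters whose highest density was 40 to 59, 4.02% of the methylated, 21.6% of the intermediate and 54.6% of the unmethylated ones held a promoter. The other way round, 28.2% of clusters with no placed promoter were methylated in the DNMT3A2 line, against 4.77% of those with one. Windows with fewer than 6 CpGs could not be placed, so the clusters without a placed promoter hold some promoters as well.

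Within the same bins of density, clusters with a promoter were less methylated than those without in every line. At 30 to 39 CpGs the medians with a promoter were 1.81% in the SETD2 knockout, 0.326% in the DNMT3B1 line and 1.20% in the DNMT3A2 line, against 4.59%, 1.73% and 5.64% without one. At 40 to 59 CpGs they were 0.613%, 0% and 0.249% with a promoter, against 1.96%, 0.486% and 1.46% without. The quartiles overlapped in part: at 30 to 39 CpGs the quartiles in the knockout were 0.526% and 3.68% with a promoter and 2.44% and 6.94% without one.

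Clusters with the promoter of a germline gene had higher median levels than clusters with any promoter over all densities and at 40 to 59 CpGs, but not in every line at lower density. Of 54 germline genes listed, 40 had a placed promoter, 23 of these lay in a cluster and 22 in a scored one; 3 of these clusters were methylated in the DNMT3A2 line, 15 were between and 4 unmethylated. Their medians were 3.15% in the SETD2 knockout, 0.898% in the DNMT3B1 line and 2.62% in the DNMT3A2 line. Among the 16 with a highest density of 40 to 59, the medians were 3.34%, 1.05% and 3.25%, against 0.613%, 0% and 0.249% over the 1865 clusters with any promoter in that bin. Density within the bin was not matched between these sets. At 30 to 39 CpGs the 5 germline clusters had medians of 1.96%, 0.465% and 0.938%, against 1.81%, 0.326% and 1.20% over any promoter. The only one at 20 to 29 CpGs, Nobox, had 6.30%, 0.772% and 1.02%, against medians of 3.23%, 0.962% and 3.87%. Of the 1865 clusters only 8 were methylated in the DNMT3A2 line, and 3 of the 8 belonged to listed germline genes. The list was chosen with earlier results of these data known and serves as a description.

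The 3 methylated germline clusters were chosen by their DNMT3A2 level, and their values are a description; their order of lines is also that of all clusters together. The Tuba3a cluster had 71 of 1203 reads methylated in the SETD2 knockout, 12 of 880 in the DNMT3B1 line and 101 of 856 in the DNMT3A2 line. The Tuba3b cluster had 36 of 529, 8 of 350 and 48 of 337. The Dpep3 cluster had 71 of 1203, 25 of 870 and 118 of 892. At each of these genes the exact intervals of the 3 lines did not overlap; for Tuba3b they were 4.81% to 9.30% in the knockout, 0.992% to 4.45% in the DNMT3B1 line and 10.7% to 18.4% in the DNMT3A2 line.

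At some other germline promoters the SETD2 knockout was the highest line. Nobox, an oocyte homeobox factor, had 26 of 413 reads methylated in the SETD2 knockout, 2 of 259 in the DNMT3B1 line and 4 of 393 in the DNMT3A2 line. Sycp3, a component of the synaptonemal complex, had 27 of 549, 3 of 525 and 6 of 582, and Mov10l1, an RNA helicase of the piRNA pathway, had 53 of 945, 3 of 551 and 20 of 883. At these 3 genes the interval of the knockout lay above both others. Hormad1, a meiotic chromosome axis protein, had 18 of 726, 1 of 423 and 29 of 509 reads, the order of Tuba3a. Tex101, a germ cell surface protein, had 11 of 362, 10 of 225 and 17 of 241 reads, with intervals that overlapped in all 3 lines.

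Of the 4 unmethylated germline clusters, 3 had at most 4 methylated reads in any line. Hormad2 had 3 of 755 reads methylated in the SETD2 knockout, 0 of 462 in the DNMT3B1 line and 2 of 556 in the DNMT3A2 line, and Prdm9 had 4 of 871, 1 of 843 and 2 of 689. Cyct, the testis cytochrome c, had 0 of 266, 1 of 215 and 0 of 228. Zp3, a protein of the egg coat, had 11 of 561, 0 of 504 and 3 of 320, and its intervals lay above the background in the knockout and the DNMT3A2 line. The remaining scored germline clusters, at Syce1, Brdt, Piwil1, Stk31, Rec8, Sohlh2, Figla, Gpat2, Tex19.1 and Mei4, had 0% to 5.30% in the knockout, 0% to 2.04% in the DNMT3B1 line and 1.70% to 8.97% in the DNMT3A2 line. The cluster of Piwil4, which was not scored, had 1 of 142, 0 of 87 and 1 of 62 reads.

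**Figure D4:**
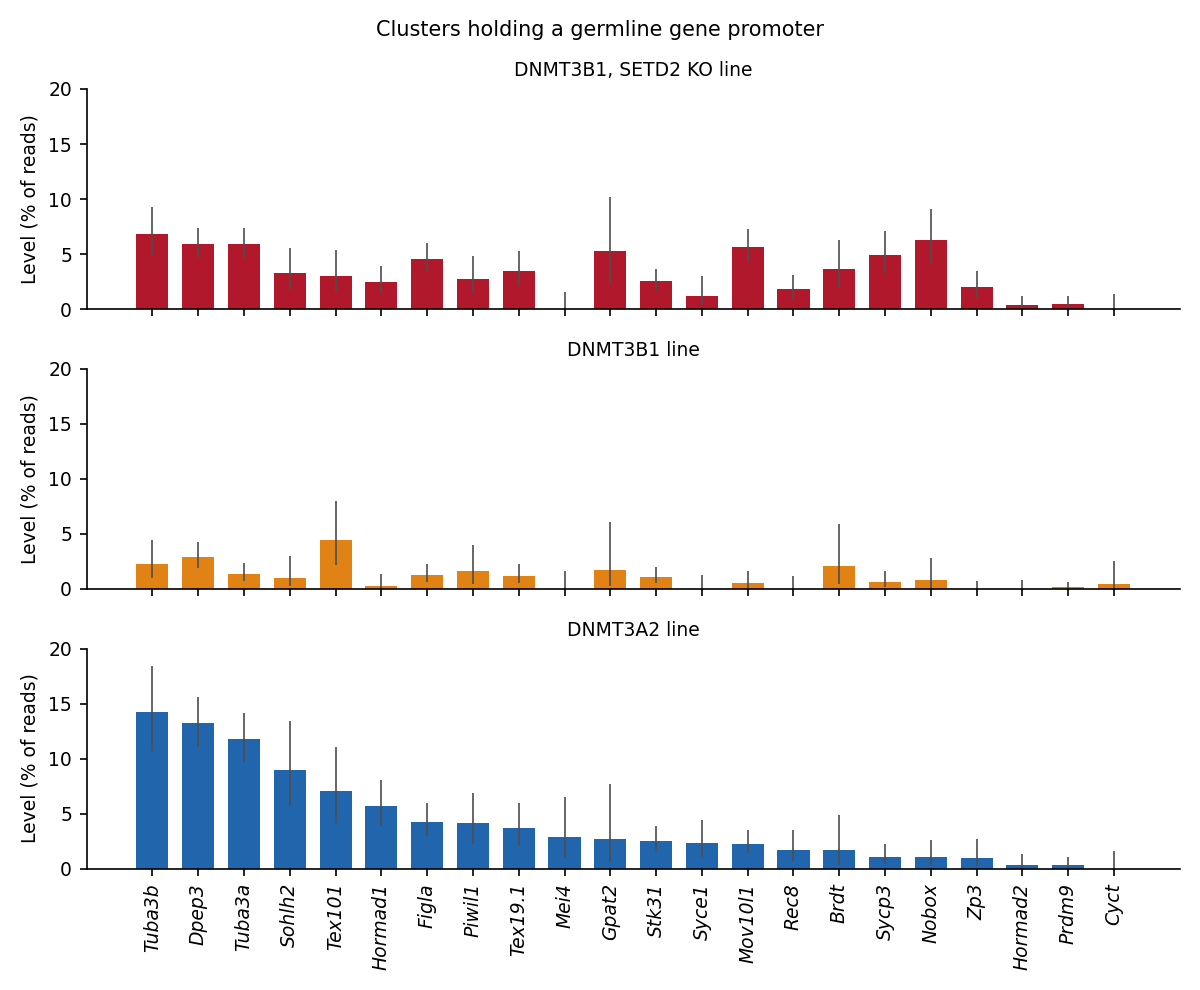
Methylation level (percent of reads) of the 22 scored clusters that hold a germline gene promoter, ordered by the level in the DNMT3A2 line; bars are levels and thin lines exact 95% intervals. Tuba3b, Dpep3 and Tuba3a lead in the DNMT3A2 line, and Tuba3b is also the highest of the 22 in the SETD2 knockout (6.81%).

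The other 5 methylated promoter clusters of density 40 or more, named after their values were seen, were those of Ppp1r14bl, Gm30604, Gm14329, Spata22 and 1700029P11Rik. Spata22, a meiotic recombination factor that was not on the germline list, had 15 of 364 reads methylated in the SETD2 knockout, 4 of 240 in the DNMT3B1 line and 25 of 173 in the DNMT3A2 line. The 5 clusters had 2.65% to 7.86% in the knockout, 0.521% to 3.12% in the DNMT3B1 line and 10.5% to 14.5% in the DNMT3A2 line.

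Pluripotency, tissue-specific and imprinted genes had few promoters in the clusters. Of 24 pluripotency genes, 3 lay in scored clusters: Pou5f1 and Tdgf1 in unmethylated clusters and Tfcp2l1 in one between. The Pou5f1 cluster, at the promoter of the core pluripotency factor, had 2 of 388 reads methylated in the SETD2 knockout, 1 of 374 in the DNMT3B1 line and 1 of 248 in the DNMT3A2 line. Of 26 genes of differentiated tissues, 2 lay in scored clusters. Myog, a muscle transcription factor, had 23 of 324, 7 of 253 and 10 of 223 reads methylated, and Krt18, an epithelial keratin that embryonic cells can express, had 1 of 335, 6 of 348 and 0 of 201, with the 6 reads on 1 site.

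Of 19 imprinted genes, 3 lay in scored clusters, and all 3 clusters were unmethylated in the DNMT3A2 line, as were 61.0% of the 3186 clusters with any promoter. Snrpn, whose germline imprint is normally methylated on the maternal copy, had no methylated read among 423 in the SETD2 knockout, 233 in the DNMT3B1 line and 265 in the DNMT3A2 line. Meg3, a maternally expressed non-coding RNA, had 20 of 1031, 0 of 673 and 6 of 788. Zim1, a maternally expressed zinc finger gene, had 5 of 429, 0 of 489 and 1 of 410.

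The bases around a CpG went with its level, and differently in the lines. Placed promoter windows gave the sequence of 33019 sites of the clusters, whose counts merge both strands. A site such as TCGA has a purine (A or G) after the CpG on both strands, while GCGC has a pyrimidine (C or T) after it on both. The 7962 sites with a purine on both strands had 1.80% methylated reads in the SETD2 knockout, 0.831% in the DNMT3B1 line and 1.08% in the DNMT3A2 line. The 8755 sites with a pyrimidine on both strands had 0.961%, 0.321% and 1.46%. Purine over pyrimidine, the ratio of levels was 1.87 in the knockout, 2.59 in the DNMT3B1 line and 0.740 in the DNMT3A2 line. At density 30 to 59 alone the ratio in the DNMT3B1 line was 1.61, and with background subtracted it was 3.85.

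This order of contexts held over chromosomes. The purine over pyrimidine ratio was above 1 on 17 of 18 autosomes with placed windows in the SETD2 knockout, on 18 of 18 in the DNMT3B1 line and on 2 of 18 in the DNMT3A2 line. It also held for promoter sites outside the clusters, where purine sites had 0.859%, 0.346% and 0.440% and pyrimidine sites 0.559%, 0.181% and 0.557% in the knockout, the DNMT3B1 line and the DNMT3A2 line, so it is not particular to the clusters. At TCGA the DNMT3B1 line had 1.00% and the DNMT3A2 line 1.07%, whereas at GCGC they had 0.168% and 1.20%. The SETD2 knockout had 2.27% at TCGA and 0.768% at GCGC, on the same side as the DNMT3B1 line.

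**Figure D5:**
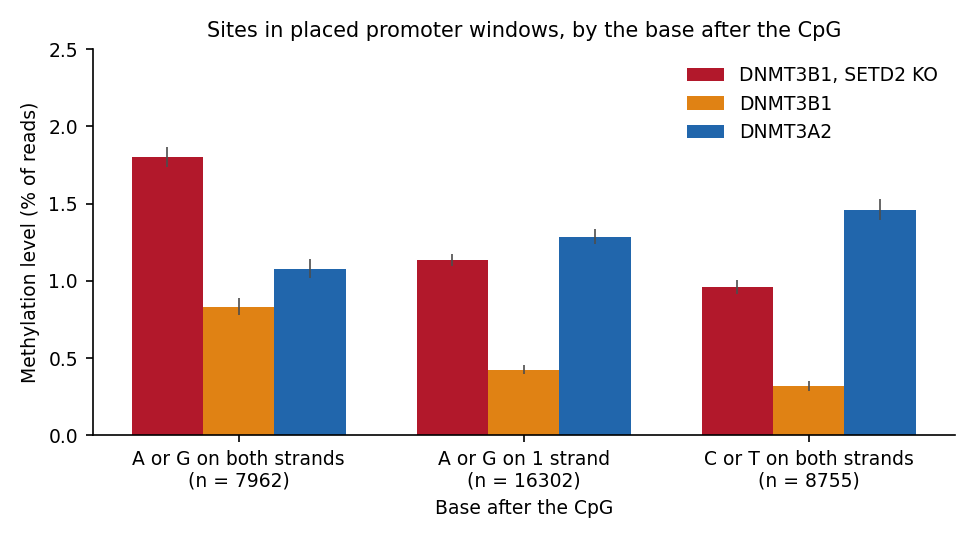
Methylation level (percent of reads) at sites of the clusters in placed promoter windows, by the base after the CpG; bars are pooled levels and thin lines exact 95% intervals. Both DNMT3B1 lines are highest where A or G follows on both strands (1.80% and 0.831%), and the DNMT3A2 line is highest where C or T does (1.46%).

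Short motifs were counted on both strands of the placed windows in the clusters. The letters GGGCGG, a GC box bound by Sp1-type factors, were found in 18.7% of 166 windows in methylated, 39.4% of 1252 in intermediate and 54.6% of 2410 in unmethylated clusters. Of all 15916 placed windows, at any density, 58.7% held them. Of all promoter windows, which include those with too few CpGs to be placed, 35.7% did. At a highest density of 30 to 39, the shares were 10.0% of 40 windows in methylated, 35.2% of 403 in intermediate and 49.01% of 406 in unmethylated clusters. CCGGAAG, an ETS-type motif, was in 6.63%, 8.15% and 19.9% of windows at all densities, but at 30 to 39 the shares were 10.0%, 8.68% and 10.6%. It was in 14.8% of placed and 8.86% of all promoter windows. CACGTG, the palindromic E-box, was in 7.83%, 10.1% and 10.8% of windows in methylated, intermediate and unmethylated clusters. It was in 10.0% of placed and 7.15% of all windows, and at 30 to 39 its shares were 12.5%, 8.44% and 8.62%. Of the rarer ones, GCGGGAA, an E2F-type motif that can overlap GGGCGG, was in 5.42%, 3.83% and 7.43%. Placed windows held it in 7.58% and all windows in 4.60% of cases. At all densities together TCGCGAGA was in at most 0.871% and the palindromic NRF1 motif in at most 1.95% of the windows of any class. Their shares were 1.72% and 1.73% of placed windows and 0.995% and 0.971% of all windows. A match is a description of letters and no sign of binding.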

How the data were processed

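Whole-genome bisulfite sequencing gave, for each CpG, the reads that kept a C (methylated) and all reads. Per the file headers, the deposited series table held the count of methylated reads and the coverage (all reads) of each CpG for the DNMT3B1 and DNMT3A2 lines. For the SETD2 knockout, the deposited values were the same counts and the methylated fraction, and 44.7% of the 20782144 CpGs were listed, none of them under 10 reads. The 2 knockout files were identical and were counted once. Positions are in mm9, as per the submitters' processing notes. Aligner, caller and duplicate handling were not given in the sources used here. Reads from collapsed repeats and amplified duplicates would enter these counts, and the maximum of 80, 40 and 45 reads (knockout, DNMT3B1, DNMT3A2) removed 3663 sites. Spiked-in phage DNA was not analysed here, so incomplete conversion was gauged only from sites of density 100 or more. CpG counts give no check of the deleted genes.

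The 6 runs were grouped by line from the sample titles. Levels are methylated over all reads pooled over sites. Relative levels divide by the level over all autosomal sites compared; for a ratio a line with 0 methylated reads was set to 3 reads. No test was run, since each line is 1 library. The counting of calls was tried on simulated data with independent counts, which does not cover reads that count at several CpGs. Changes were planted only in clusters at or above the relative level of all autosomal sites, and not all of them were called. Power in clusters of lower level was therefore not gauged. Cluster classes, members, gene lists and rules were chosen with earlier results of these data known. Clusters named were the 5 at each extreme of a line or pair of lines with at least 10 sites and 200 reads, and genes named were list members whose promoter lay in a cluster or genes of a named cluster. Of 31396 autosomal RefSeq promoter windows (GRCm38.p6), 17846 had at least 6 CpGs and 15916 (89.2%) were placed by exact CpG spacing at a single place on the same chromosome; no window of chromosome 18 was used here. No coordinate was converted between builds. Alternatives changed the coverage limits, the joining distance, the density and distance limits, the split, the background and the calling rule. Tables were read with pandas 2.3.3 and numpy 2.4.6 under Python 3.11.15; intervals came from scipy 1.17.1 and plots from matplotlib 3.10.9.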

Additional observations from a re-analysis of the deposited data

How the results depend on the processing

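Under every alternative run, methylated clusters stayed above unmethylated ones in the lines that had not made the split, and joining sites within 1000 bp moved none of the values listed next. The relative log2 ratio over all sites of the clusters lay near 0 (-0.04 for knockout over DNMT3B1, -0.11 for knockout over DNMT3A2, -0.07 for DNMT3B1 over DNMT3A2) and was above 0 for all 3 pairs at density 30 to 59 (0.02, 0.13 and 0.11). Of the levels, ratios and counts of the line and class comparisons, those that moved by more than their 95% interval, or counts by more than 1.5 times, were these, where a ratio is that of methylated to unmethylated clusters. A minimum of 10 reads gave 4.95% in the SETD2 knockout, 6.63% in the DNMT3A2 line, 5687 methylated clusters, a ratio of 6.22 in the knockout, a ratio of 10.4 in the DNMT3B1 line, 1037 calls higher for knockout over DNMT3B1, 1413 calls lower for knockout over DNMT3B1, 1533 calls higher for knockout over DNMT3A2, 1734 calls lower for knockout over DNMT3A2, 1376 calls higher for DNMT3B1 over DNMT3A2 and 1326 calls lower for DNMT3B1 over DNMT3A2. A minimum of 1 read gave 5.06% in the SETD2 knockout, 6.74% in the DNMT3A2 line and a ratio of 10.9 in the DNMT3B1 line. With no coverage maximum there were 5.58% in the SETD2 knockout, 2.43% in the DNMT3B1 line, 7.78% in the DNMT3A2 line, a ratio of 6.47 in the knockout and a ratio of 11.5 in the DNMT3B1 line. Joining within 250 bp gave a ratio of 6.23 in the knockout. Over 20000 bp from dense DNA there were 5.28% in the SETD2 knockout, 2.46% in the DNMT3B1 line, 7.14% in the DNMT3A2 line, 1471 calls lower for knockout over DNMT3B1 and 1331 calls higher for DNMT3B1 over DNMT3A2. Density 20 to 39 gave 5.47% in the SETD2 knockout, 2.65% in the DNMT3B1 line, 7.41% in the DNMT3A2 line, a ratio of 4.3 in the knockout and a ratio of 7.68 in the DNMT3B1 line. Density 30 to 59 gave 2.78% in the SETD2 knockout, 1.29% in the DNMT3B1 line, 3.15% in the DNMT3A2 line, 792 methylated clusters, a ratio of 8.09 in the knockout, a ratio of 16.2 in the DNMT3B1 line, 288 calls higher for knockout over DNMT3B1, 386 calls lower for knockout over DNMT3B1, 667 calls higher for knockout over DNMT3A2, 359 calls lower for knockout over DNMT3A2, 421 calls higher for DNMT3B1 over DNMT3A2 and 255 calls lower for DNMT3B1 over DNMT3A2. With background subtracted there were 4.62% in the SETD2 knockout, 2.28% in the DNMT3B1 line, 6.54% in the DNMT3A2 line, a ratio of 8.08 in the knockout and a ratio of 16.5 in the DNMT3B1 line. With 10 sites and 200 reads there were 4047 methylated clusters, 3594 unmethylated clusters, a ratio of 7.34 in the knockout, a ratio of 14.3 in the DNMT3B1 line, 1061 calls higher for knockout over DNMT3B1, 1285 calls lower for knockout over DNMT3B1, 1339 calls higher for knockout over DNMT3A2, 1368 calls lower for knockout over DNMT3A2, 1186 calls higher for DNMT3B1 over DNMT3A2 and 1268 calls lower for DNMT3B1 over DNMT3A2. A split at 20% and 0.5% gave 1111 methylated clusters, a ratio of 8.5 in the knockout and a ratio of 16.3 in the DNMT3B1 line. A split on the DNMT3B1 line gave 770 methylated clusters, 14194 unmethylated clusters and a ratio of 3.2 in the knockout. A split on the SETD2 knockout gave 3936 methylated clusters. Without the condition on intervals there were 7024 calls higher for knockout over DNMT3B1, 8656 calls lower for knockout over DNMT3B1, 6702 calls higher for knockout over DNMT3A2, 6806 calls lower for knockout over DNMT3A2, 8339 calls higher for DNMT3B1 over DNMT3A2 and 7344 calls lower for DNMT3B1 over DNMT3A2. With levels not made relative there were 8929 calls higher for knockout over DNMT3B1, 333 calls lower for knockout over DNMT3B1, 1334 calls higher for knockout over DNMT3A2, 4936 calls lower for knockout over DNMT3A2, 153 calls higher for DNMT3B1 over DNMT3A2 and 12313 calls lower for DNMT3B1 over DNMT3A2. With no condition on the knockout there were 6.8% in the DNMT3A2 line and 3403 calls lower for DNMT3B1 over DNMT3A2. The shifts under stricter filters include fewer sites, clusters or reads by construction; other causes were not tested. Calls without the relative scale follow the overall levels of the lines. Another 68 values moved: medians of clusters with or without a promoter (those with one in all 3 lines when sites were joined within 1000 bp), relative log2 ratios over sites, and purine over pyrimidine ratios, which kept their side of 1 in every line. Of the calls of clusters named by rank, 4 were lost at a minimum of 10 reads, on chromosomes 4, 8, 11 and 13; the last kept a relative log2 ratio of -4.03 against -5.10. The clusters at chr6:131325739-131326353 and at Dhx30 gave no value there.

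No paired analysis was possible because each line came as 1 set of counts with no replicate number, and for the same reason no replicate was left out. With 1 library a line, lines, cultures and libraries cannot be told apart. Depth limits single clusters: at the median of 226 reads in the DNMT3B1 line, a level under 1% rests on at most a few methylated reads.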
